A study of Homo sapiens with 6 samples.

Results

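TANK and the proteins that share its place around TBK1 were examined in HCCLM3, a human hepatocellular carcinoma (HCC) cell line, with and without overexpression of *PON1*, which encodes paraoxonase 1. The 10 genes are *TANK*, its paralogous adaptors *AZI2* and *TBKBP1*, the kinases *TBK1* and *IKBKE*, the TNF receptor associated factors *TRAF2* and *TRAF3*, and *MAVS*, *IRF3* and *OPTN*. They were found by gene symbol among 20381 genes of the count table, each in 1 row, and all 10 passed the filter on low counts. *TANK* was chosen from these libraries because its counts were lower with *PON1* overexpression, so its difference is given as a description without a test. The other 9 genes, its partners, were listed for their roles, with earlier results of the same data known.

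The study sequenced poly(A) RNA from 3 libraries of HCCLM3 carrying the *PON1* coding sequence by lentivirus under puromycin selection (PON1-OE) and 3 libraries of its negative control (NC), described in the series as an empty vector. Both groups are the same line, and the sources do not say whether the replicates of a group are separate infections, cultures or RNA samples, so p-values measure the spread between these libraries. The labels call the overexpression stable, whereas the design text of the series places lysis at 24 h after transfection. The design text gives 15% fetal bovine serum for both groups, and the study's methods give another serum content. The totals were 15706672 to 17948383 estimated counts per library. *PON1* had 0, 2 and 3 counts in the NC libraries and 155, 181 and 167 in the PON1-OE libraries, at least 60.0-fold higher against a floor of 3 counts per library. Of 11 hepatocyte markers, *KRT8*, *KRT18* and *HNF4A* were at 72.5 CPM (counts scaled to the library size) or more in every library, whereas *ALB*, *APOA1*, *TTR* and *SERPINA1* were under 1 CPM in every library. Of the leukocyte markers, *PTPRC*, *CD3E* and *LYZ* were at 0 in every library and *CD68* was at 206.1 to 247.9 CPM. The summed leukocyte list was at 206.4 to 226.5 CPM in NC against 224.1 to 248.0 CPM with PON1-OE, and its part in the results was not tested. The summed endothelial list, led by *PECAM1*, was at 13.4 to 13.8 CPM in NC against 14.25 to 16.4 CPM with PON1-OE, and the summed fibroblast list at 15.98 to 20.9 CPM against 16.7 to 20.2 CPM, and their part was not tested either.

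TBK1 and IKKε (the product of *IKBKE*) are the non-canonical IκB kinases. The scaffold proteins TANK, NAP1 (from *AZI2*) and SINTBAD (from *TBKBP1*) each carry a related TBK1-binding domain, and they bring the kinases to different places in the cell. When viral RNA is sensed, MAVS on mitochondria recruits TRAF ubiquitin ligases and the kinases, which phosphorylate the transcription factor IRF3 and so turn on type I interferon. TANK was named as an activator of NF-κB that binds TRAF proteins, and it is also known to restrain NF-κB signaling. TBK1 further phosphorylates OPTN, a receptor that delivers ubiquitin-tagged cargo to autophagosomes. Hepatocytes use this pathway against hepatitis viruses.

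To follow the members across the groups, expression was given as CPM after TMM normalization, and differences as log2 fold changes (log2FC) of PON1-OE against NC from edgeR's quasi-likelihood fit over 11958 genes. Values are given in the order of replicates 1 to 3. In these bulk libraries, fewer cells of a type and less RNA per cell cannot be told apart. The members differed in direction. *TANK* and *TBKBP1* had lower levels in every PON1-OE library than in any NC library, *AZI2* and *IKBKE* had higher levels in every PON1-OE library, and the groups overlapped in the other 6 members. Over all genes tested, such a separation was found in 7.74% of genes with PON1-OE below NC and in 8.32% with PON1-OE above NC, against 2 of 10 members in each direction, *TANK* being among them by choice. None of the 9 partners (0 of 9) passed edgeR at an adjusted p of 0.05 (Benjamini-Hochberg over all genes tested), a threshold that 0.677% of all genes passed. At an unadjusted p under 0.05, 1 of the 9 partners was found by edgeR, by DESeq2 and by limma-voom alike, against 11.1% of all genes tested in edgeR. DESeq2 also called 0 of the 9 at the adjusted threshold and gave 3 of them no adjusted p because of their low mean counts, and limma-voom called 0. The median log2FC of the 10 members was −0.021, with 4 higher and 6 lower, against −0.0025 over all genes tested.

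**Figure D1:**
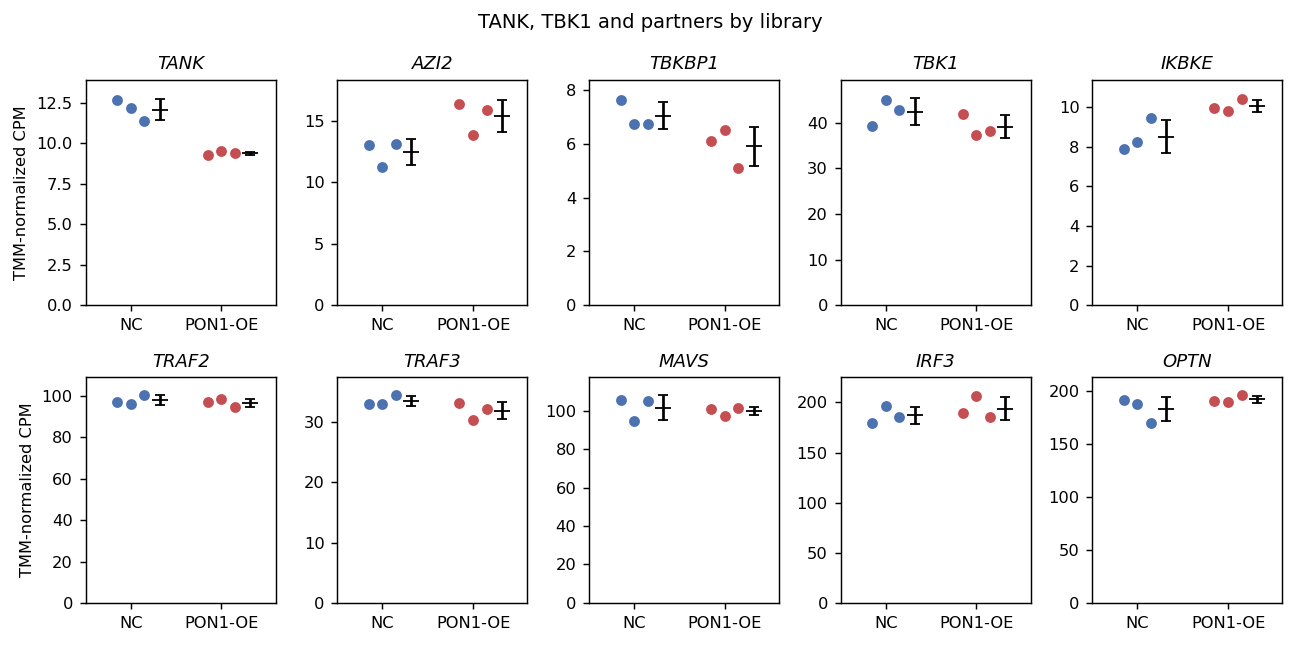
TMM-normalized CPM (y axis, from 0) of each member in the 3 NC and the 3 PON1-OE libraries (points), with the mean and SD of each group (black). The groups separate in *TANK*, *TBKBP1*, *AZI2* and *IKBKE*, and overlap in the other 6 genes.

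*TANK* (ENSG00000136560, plus strand of chromosome 2) spans 161136908 to 161236221 on GRCh38 in GENCODE v29. Its levels were 12.7, 12.2 and 11.4 CPM in NC against 9.32, 9.51 and 9.39 CPM with PON1-OE. Every PON1-OE library was lower than the lowest NC library, and the mean in PON1-OE was 77.8% of that in NC. The fitted log2FC was −0.36 (standard error 0.11), which placed *TANK* at percentile 2.29 of all genes tested. The spread among the PON1-OE libraries was a coefficient of variation of 1.02%, below the 8.15% that counting alone gives at these counts of 147 to 153, so the SD of this group understates the error of its mean. In NC the spread was 5.38%, where counting gives 6.93%. The antisense genes that overlap *TANK* in the annotation had no row in the count table, and their exons share 84 bases with *TANK* in all.

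*AZI2* (ENSG00000163512, minus strand of chromosome 3 from 28315003 to 28349127) encodes NAP1, an adaptor that binds TBK1 as TANK does. Its levels were 13.0, 11.2 and 13.1 CPM in NC against 16.4, 13.9 and 15.9 CPM with PON1-OE. The PON1-OE libraries were all above the NC libraries, opposite to *TANK*, with a log2FC of 0.31 (standard error 0.10, edgeR adjusted p = 0.242). The unadjusted p was 0.0083, and it was 0.0526 without NC replicate 2. *AZI2* overlaps *CMC1*, a gene for a mitochondrial protein on the plus strand, and the exons of both share 3520 bases. The library kit named in the labels does not mark strand, and the deposited counts of both genes carried decimals. *AZI2* had 214.73, 203.07 and 223.58 estimated counts in NC against 269.28, 222.05 and 248.82 with PON1-OE. With those of *CMC1*, they added up to 556, 638 and 595 in NC against 676, 587.96 and 583 with PON1-OE. The decimals of the pair cancelled to within 0.05 in every library, as they do where reads are divided between genes, and the level of *AZI2* depends on any such division. The share of *AZI2* in the sum was 38.6%, 31.8% and 37.6% in NC against 39.8%, 37.8% and 42.7% with PON1-OE, so that the groups overlapped. Summed with *CMC1*, the locus had 33.7, 35.3 and 34.9 CPM in NC against 41.2, 36.8 and 37.2 CPM with PON1-OE. The groups of the sum did not overlap, but the log2FC was smaller at 0.15 (standard error 0.069, edgeR adjusted p = 0.428), and *CMC1* alone had a log2FC of 0.053 (standard error 0.086, adjusted p = 0.879).

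*TBKBP1* (ENSG00000198933, plus strand of chromosome 17 from 47694081 to 47712050) encodes SINTBAD, the third adaptor of this family. Its levels were 7.63, 6.74 and 6.74 CPM in NC against 6.09, 6.50 and 5.11 CPM with PON1-OE. The groups did not overlap, but PON1-OE replicate 2 lay near the lowest NC libraries. The log2FC was −0.25 (standard error 0.14, edgeR adjusted p = 0.552), and its 95% interval of −0.55 to 0.047 covered 0. Leaving out PON1-OE replicate 3 gave −0.16, and leaving out PON1-OE replicate 2 gave −0.33. This gene had the lowest counts of the 10, 80 to 126, for which counting alone gives a coefficient of variation of 9.09% in NC and 10.3% in PON1-OE. The observed coefficient was 7.27% in NC and 12.2% in PON1-OE.

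The shares of the adaptors within a library do not depend on the scaling between libraries. Scaled by the length of the longest basic transcript, *TANK* made up 55.8%, 58.3% and 54.2% of the summed level of the 3 adaptors in NC against 46.4%, 49.2% and 48.4% with PON1-OE. The mean share of *TANK* was 56.1% ± 2.08 (SD, n = 3) in NC against 48.0% ± 1.42 (SD, n = 3) with PON1-OE. The share of *AZI2* was 26.7% ± 2.09 (SD, n = 3) in NC against 36.2% ± 2.65 (SD, n = 3) with PON1-OE. For *TBKBP1* the share was 17.2% ± 0.449 (SD, n = 3) in NC against 15.9% ± 1.93 (SD, n = 3) with PON1-OE, and the groups overlapped. *TANK* was thus the largest part in all 6 libraries on this length scale, with a smaller part in PON1-OE. Per length of merged exons, *TANK* was below *AZI2* on average over the 6 libraries (1.93 against 2.19 CPM per kilobase). The shares rest on the choice of *TANK* and on the division of reads between *AZI2* and *CMC1*.

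**Figure D2:**
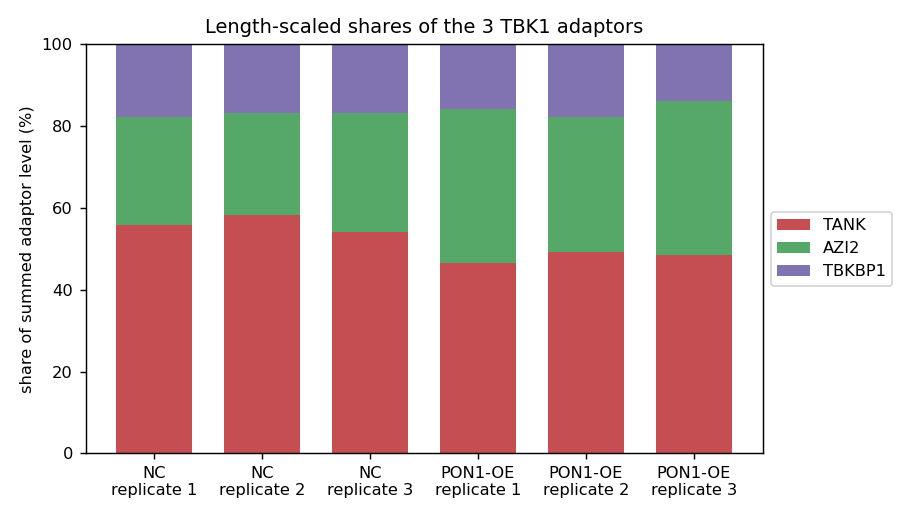
Share (%) of *TANK*, *AZI2* and *TBKBP1* in their summed level per length, 1 bar per library. *TANK* takes 54.2% to 58.3% in the NC libraries and 46.4% to 49.2% in the PON1-OE libraries, and the share of *AZI2* is larger in the PON1-OE libraries.

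The kinases had unlike patterns. *TBK1* (ENSG00000183735, plus strand of chromosome 12 from 64451880 to 64502108) had 39.2, 45.1 and 42.9 CPM in NC against 41.9, 37.3 and 38.3 CPM with PON1-OE. The groups overlapped, since NC replicate 1 lay below PON1-OE replicate 1. Its log2FC was −0.11 (standard error 0.071, 95% interval −0.26 to 0.033, edgeR adjusted p = 0.595). Leaving out NC replicate 2 gave −0.067 for *TBK1*, and leaving out NC replicate 1 gave −0.17. Without NC replicate 1 the edgeR p of *TBK1* was 0.0443 unadjusted and 0.594 adjusted. The antisense gene *AC135279.3* shares 702 exonic bases with *TBK1* and had no row in the count table. *IKBKE* (ENSG00000263528, plus strand of chromosome 1 from 206470476 to 206496889), the inducible relative of *TBK1*, had 7.87, 8.24 and 9.44 CPM in NC against 9.98, 9.82 and 10.4 CPM with PON1-OE. All PON1-OE libraries were above all NC libraries, with NC replicate 3 close to them. The log2FC was 0.24 (standard error 0.12, 95% interval −0.0058 to 0.49, edgeR adjusted p = 0.461). The unadjusted p of *IKBKE* in edgeR was 0.0551. It was 0.0265 without NC replicate 3, and 0.0589 to 0.172 with any other single library left out. *C1orf147*, antisense to *IKBKE*, shares 156 exonic bases with it and had no row in the count table.

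The log2 ratio of *TANK* to *TBK1* counts was −1.63, −1.89 and −1.91 in NC against −2.17, −1.97 and −2.03 with PON1-OE. The groups did not overlap in this ratio, but PON1-OE replicate 2 and NC replicate 3 were close. The log2 ratio of *TANK* to *AZI2* counts was −0.041, 0.12 and −0.21 in NC against −0.81, −0.55 and −0.76 with PON1-OE, a wider gap. Both ratios share the counts of *TANK*, which was chosen for its difference.

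**Figure D3:**
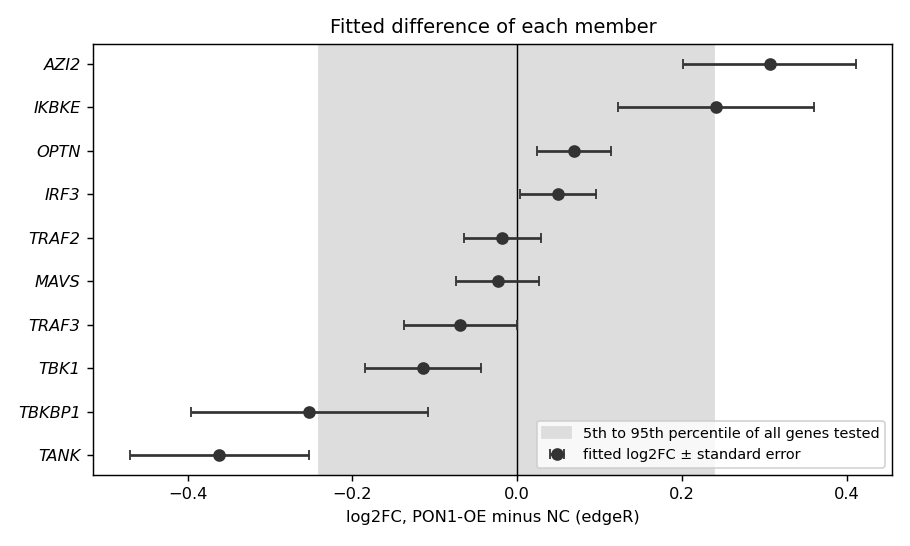
Fitted log2FC of PON1-OE against NC (x axis) of each member with its standard error (bars), and the 5th to 95th percentile of the log2FC of all genes tested (grey band, −0.24 to 0.24). *TANK* and *TBKBP1* lie below the band, *AZI2* and *IKBKE* above it, and the other 6 members inside it. *IKBKE* and *TBKBP1* lie outside it by less than their standard errors. The genes outside have the lowest counts of the members, 80 to 269, whereas the band covers genes of all counts.

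The groups overlapped in both TRAF genes. *TRAF2* (ENSG00000127191, plus strand of chromosome 9 from 136881912 to 136926607), the ligase that links TNF receptors to NF-κB, had 97.1, 96.1 and 100.6 CPM in NC against 97.0, 98.6 and 94.5 CPM with PON1-OE. The libraries of both groups were interleaved, with a log2FC of −0.018 and a 95% interval of −0.11 to 0.079 (edgeR adjusted p = 0.929), and leaving out NC replicate 3 turned its sign, to 0.0017. *TRAF3* (ENSG00000131323, plus strand of chromosome 14 from 102777476 to 102911500), which couples MAVS to TBK1, had 32.9, 32.9 and 34.4 CPM in NC against 33.1, 30.3 and 32.1 CPM with PON1-OE. The groups of *TRAF3* overlapped through PON1-OE replicate 1, and its log2FC was −0.069 with a 95% interval of −0.21 to 0.075 (edgeR adjusted p = 0.785). Leaving out PON1-OE replicate 2 gave −0.034 for *TRAF3*.

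*MAVS* (ENSG00000088888, plus strand of chromosome 20 from 3846799 to 3876123), the mitochondrial adaptor, had 105.4, 94.4 and 105.2 CPM in NC against 101.0, 97.5 and 101.3 CPM with PON1-OE. NC replicate 2 was the lowest of the 6, and the log2FC was −0.024 with a 95% interval of −0.13 to 0.082 (edgeR adjusted p = 0.910). Leaving out NC replicate 1 or NC replicate 3 turned the sign of *MAVS*, to 0.0026 and 0.0016. *IRF3* (ENSG00000126456, minus strand of chromosome 19 from 49659569 to 49665875) had 179.9, 196.4 and 185.5 CPM in NC against 189.1, 206.9 and 185.7 CPM with PON1-OE. The groups of *IRF3* overlapped, and its log2FC was 0.049 with a 95% interval of −0.047 to 0.15 (edgeR adjusted p = 0.762). It was 0.0011 without PON1-OE replicate 2 and 0.085 without NC replicate 2. *IRF3* shares 734 exonic bases with *BCL2L12* on the opposite strand, and the estimated counts of this pair too carried decimals that added up to whole numbers in every library, within 0.01. *IRF3* held 84.4% to 87.0% of the pair's counts, and the summed pair had a log2FC of 0.041. *OPTN* (ENSG00000123240, plus strand of chromosome 10 from 13099449 to 13138308) had 191.8, 188.1 and 170.6 CPM in NC against 191.2, 190.0 and 196.2 CPM with PON1-OE. NC replicate 3 lay apart below the other libraries of *OPTN*, and the log2FC was 0.069 with a 95% interval of −0.024 to 0.16 (edgeR adjusted p = 0.615). Leaving out NC replicate 3 gave 0.019 for *OPTN*. *CCDC3*, on the opposite strand at the start of *OPTN*, had 0 counts in every library.

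To compare the members with each other, CPM were divided by the length of the longest basic transcript. *IRF3* was the highest at 103.3 to 118.8 CPM per kilobase over the 6 libraries, followed by *OPTN* at 48.5 to 55.7 and *TRAF2* at 41.7 to 44.4. *TBK1* had 11.5 to 13.9 CPM per kilobase and *MAVS* 8.06 to 8.995. *TANK* had 4.29 to 5.83 and overlapped *TRAF3* at 3.94 to 4.46. *AZI2* at 2.39 to 3.48 and *IKBKE* at 2.44 to 3.23 overlapped too, and *TBKBP1* was the lowest at 1.24 to 1.85. Each neighboring pair in this order other than *TANK* with *TRAF3* and *AZI2* with *IKBKE* did not overlap over the libraries. *TBK1* was thus more abundant per length than its relative *IKBKE* and than each of the 3 adaptors in every library. The order depends on the length used, since *TANK* moved from the sixth to the ninth place when the 5579 bases of its merged exons replaced the 2171 bases of its longest basic transcript.

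**Figure D4:**
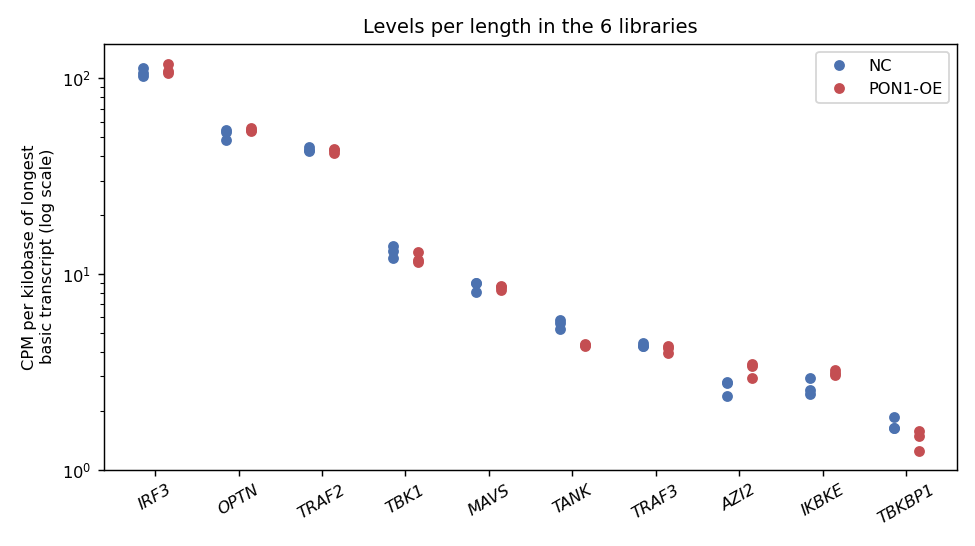
CPM per kilobase of the longest basic transcript (y axis, log scale) of each member in NC (blue) and PON1-OE (red) libraries, ordered by mean. *IRF3* lies above 100 and *TBKBP1* below 2 in every library, and *TANK* overlaps *TRAF3*.

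Genes whose profile was most like that of *TANK* were found by the root mean square difference of centered log2 CPM over the 6 libraries. The 5 nearest were *TMTC2* (0.050), *PPP4R3A* (0.056), *MICU2* (0.058), *NFAT5* (0.061) and *ABRAXAS2* (0.063). Each had lower levels in every PON1-OE library than in any NC library, as the choice by likeness to *TANK* implies. *NFAT5*, a transcription factor of the osmotic stress response, had a mean of 65.3 CPM in NC against 52.8 CPM with PON1-OE (log2FC −0.30). *PPP4R3A*, a regulatory subunit of protein phosphatase 4, had means of 48.9 and 40.7 CPM (log2FC −0.26). Among the partners *TBKBP1* came nearest to *TANK*, at 0.12 and place 256 of the genes tested, whereas *AZI2* was the farthest at 0.35 and place 10974. These places mostly follow the log2FC of each partner, since *TANK* was chosen for its difference. That of *AZI2* also depends on the division of reads with *CMC1*.

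Sequence before the start sites was searched for an NF-κB motif (the κB consensus), for the interferon-response core GAAANNGAAA and for the ETS core CCGGAAGT, on both strands of the 250 bases before each RefSeq start on GRCh38.p14. RefSeq starts were found for 9 of the 10 members, in 13 windows. The κB consensus was in 4 of these windows, 1 of *TANK*, 1 of *TRAF3* and 2 overlapping ones of *OPTN*, and in 9.96% of all 35116 windows of this length. The ETS core was in 2 windows, 1 of *TANK* and 1 of *AZI2*, against 3.42% of all windows, and the interferon-response core was in none of the 13, against 3.02%. The sites are shown because the members differ in them. They are given 5′ to 3′ on the strand of the gene, with the matched letters in capitals.
TANK, upstream start, κB consensus on the opposite strand: atttctcagtGGAAGTTCCCacttcaacat
TANK, downstream start, ETS core on the opposite strand: tggaacaaaatgcaACTTCCGGttggagtc
AZI2, ETS core on the opposite strand: cctcgggcctgACTTCCGGtttcctcgcgc
TRAF3, κB consensus on the strand of the gene: cgggcgcgccGGGGATTTCCagcgcgcgag
OPTN, κB consensus on the strand of the gene: ggcggggcccGGGAAATTCCccggcgcggg
The first *TANK* site lies at chr2:161136907-161136936, and 29 of its 30 bases are in annotated *TANK* exons of GENCODE v29. The other *TANK* site lies at chr2:161160398-161160427 and the *AZI2* site at chr3:28349024-28349053, both within annotated exons of these genes. The *TRAF3* site at chr14:102777406-102777435 and the *OPTN* site at chr10:13100060-13100089 lie outside annotated exons of these genes. A match describes letters in a window, and binding was not measured here. *TANK* and *AZI2* both have the ETS core, and *TANK*, *TRAF3* and *OPTN* have the κB consensus. Whether these motifs bear on the levels was not tested. *TBKBP1*, *TBK1*, *IKBKE*, *TRAF2* and *MAVS* had none of the 3 motifs in these windows.

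The wider pathway was described by 5 lists of genes that act before, beside or after TBK1, of which 71 of 87 members were tested. Over the 5 lists 2 of the 71 members passed edgeR at an adjusted p of 0.05, against 0.677% of all genes tested. Both were higher with PON1-OE, and DESeq2 and limma-voom called the same genes. The first was *TNIP1*, whose product binds ubiquitin and restrains NF-κB with A20. Its mean was 129.7 CPM in NC against 147.9 CPM with PON1-OE, with no overlap of the groups, and it had a log2FC of 0.19 (standard error 0.041, edgeR adjusted p = 0.0368). The second was *ULK1*, the kinase that starts autophagosome formation, with a log2FC of 0.26 (standard error 0.053, edgeR adjusted p = 0.0222). Each kept an adjusted p under 0.05 in 8 of 14 alternatives, and it was above 0.05 with the replicate block and with any library but PON1-OE replicate 2 left out, up to 0.249 for *TNIP1* and 0.0957 for *ULK1*.

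Upstream sensors and adaptors had 13 of 18 members tested, 9 higher and 4 lower, with a median log2FC of 0.062. By edgeR 0 were called, and 2 of the 13 had an unadjusted p under 0.05, against 11.1% of all genes tested, a share that also stands beside the counts of the other lists. These were *RIPK2*, the kinase behind NOD receptors (log2FC 0.12, adjusted p = 0.283), and *DHX58*, a relative of the RNA sensor RIG-I (log2FC 0.57, adjusted p = 0.426), the latter at 26 to 50 counts. *IRAK1*, a kinase of Toll-like receptor signaling, had a log2FC of 0.056 (adjusted p = 0.542 in edgeR). Other TRAF genes and ubiquitin regulators had 23 of 25 members tested, 13 higher and 10 lower, with a median log2FC of 0.013. Besides *TNIP1*, *BIRC3*, a ubiquitin ligase bound to TRAF2, had a log2FC of −0.23 (adjusted p = 0.409 in edgeR) and *TNIP2*, a relative of *TNIP1*, one of 0.089 (adjusted p = 0.458).

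The list of IκB kinase and NF-κB genes holds members of the canonical branch. With *MAP3K14*, *NFKB2* and *RELB* it also holds members of the non-canonical branch of NF-κB signaling. All 13 members of the list were tested, 12 higher and 1 lower, with a median log2FC of 0.031. In edgeR 0 of them were called and 1 had an unadjusted p under 0.05, *NFKB2*, a subunit of NF-κB (log2FC 0.13, adjusted p = 0.303). The kinases *MAP3K7* (log2FC 0.11, adjusted p = 0.671) and *IKBKB* (log2FC 0.10, adjusted p = 0.686) followed. Selective autophagy receptors and partners had all 13 members tested, 9 higher and 4 lower, with a median log2FC of 0.040. Besides *ULK1*, the receptors *TAX1BP1* (log2FC −0.12, adjusted p = 0.356 in edgeR) and *CALCOCO2* (log2FC 0.075, adjusted p = 0.556) had the smallest p. IRF3 targets and interferon genes had 9 of 18 members tested, 4 higher and 5 lower, with a median log2FC of −0.010. In edgeR 0 of them were called and 0 had an unadjusted p under 0.05, *ISG15* (log2FC 0.072, adjusted p = 0.677), *IRF9* (log2FC −0.14, adjusted p = 0.751) and *IRF1* (log2FC 0.044, adjusted p = 0.794) having the smallest p.

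**Figure D5:**
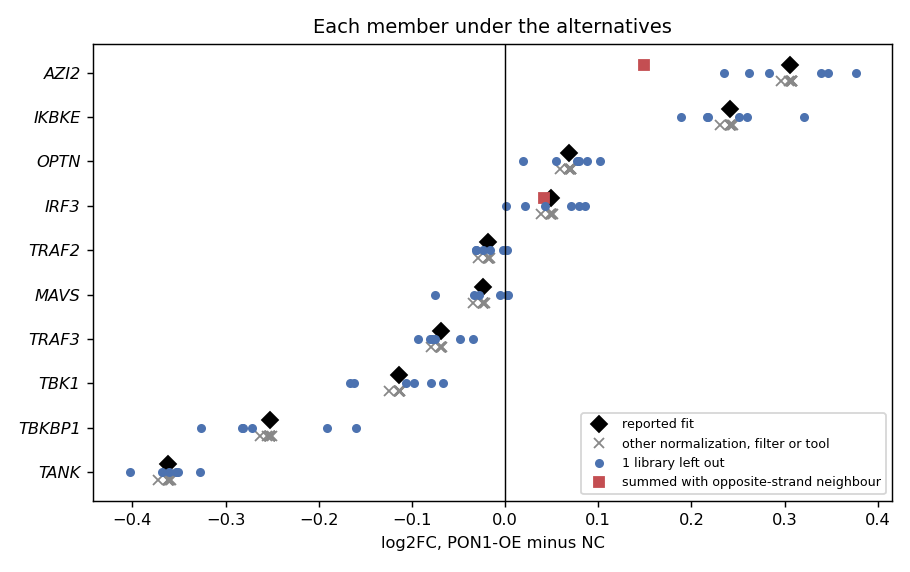
The log2FC of each member (x axis) in the reported fit (diamonds), with other normalizations, filters or tools (crosses), with 1 library left out (circles) and summed with the opposite-strand neighbor (squares, *AZI2* and *IRF3*). *TANK* stays between −0.40 and −0.33, and *AZI2* moves from 0.31 to 0.15 when summed with *CMC1*. *TANK* was chosen for its difference in these same libraries, so its range is a description only.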

How the data were processed

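RNA-seq of HCCLM3 cells gave 1 table of estimated counts per gene, which the authors deposited without normalization for 3 PON1-OE and 3 NC libraries. Of the values, 10.5% were not whole numbers. The submitters' processing notes name Bowtie2 2.2.8, HISAT2, StringTie 1.3.1 and DESeq2. The genome build, the annotation and the counter are not given in the sources used here. The labels name a NEBNext Ultra RNA kit, which does not mark strand.

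Rounded counts were fitted by edgeR 4.0.16 (R 4.3.3) after filterByExpr, which left 11958 genes, and TMM scaling. glmQLFTest compared PON1-OE with NC, and Benjamini-Hochberg adjustment ran over all genes tested. Standard errors are |log2FC| divided by the square root of F. A floor of 3 counts was 0.166 to 0.192 CPM, for counting error only. DESeq2 1.42.0 and limma 3.58.1 (voom) were alternatives, beside RLE size factors, library totals alone, unrounded counts, no filter, a minimum of 10 counts per library, the replicate block, each library left out and the fold threshold of the study. Sums with overlapping genes and merged exon lengths were added after seeing the data. The fits were also run on simulated counts with known changes, but the share of these changes that was called is not reported here. Some single genes of the lists are not reported here.

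The members and lists were chosen with earlier results of these data known. Genes named were the members, *PON1*, genes overlapping members, the 5 nearest to *TANK* in profile, and from each list those with an adjusted p under 0.05 and the 3 with the smallest p. Gene positions, exons and lengths came from GENCODE v29 (20126 of 20381 identifiers matched), promoters from RefSeq on GRCh38.p14. Libraries of a group differed by more than sampling noise (chi-square per degree of freedom 2.11 to 4.11).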

Additional observations from a re-analysis of the deposited data

How the results depend on the processing

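Over all alternatives no partner reached an adjusted p under 0.05, and DESeq2 gave *AZI2*, *TBKBP1* and *IKBKE* none. *TANK* kept a log2FC between −0.40 and −0.33, a range from the same libraries in which it was chosen for its difference. For the partners it was between 0.15 and 0.38 for *AZI2*, 0.19 and 0.32 for *IKBKE*, and −0.33 and −0.16 for *TBKBP1*. *TBK1* kept a log2FC between −0.17 and −0.067, *TRAF3* between −0.094 and −0.034, *IRF3* between 0.0011 and 0.085 and *OPTN* between 0.019 and 0.10. The sign changed for *MAVS*, between −0.075 and 0.0026 with 1 library left out, and for *TRAF2*, between −0.032 and 0.0017. Genes called over all tested numbered 81, and 6 with the fold threshold of the study, 177 without the filter and 40 with the replicate block. With 1 library left out they numbered 11 (without NC replicate 3) to 103 (without PON1-OE replicate 2), among them 34 where NC replicate 1, 44 where PON1-OE replicate 1 and 18 where PON1-OE replicate 3 was left out. Members of the pathway lists called numbered 2, and 0 with the replicate block and 0 to 2 with 1 library left out. Same-numbered libraries of the groups deviated together with correlations of 0.017, −0.023 and 0.020, so the numbers were not taken as pairs, and not every library correlated best with its own number. The share of *TANK* among the adaptors differed (PON1-OE minus NC) by −8.14 percentage points, by −7.63 from counts without length and by −6.81 with merged exon length. The cause of these changes was not tested. At counts of 80 to 269 for *TANK*, *AZI2*, *TBKBP1* and *IKBKE*, counting error by itself already limits the precision. The observed spread was larger than counting gives for *AZI2* in both groups, *TBKBP1* in PON1-OE and *IKBKE* in NC. It was smaller for *TANK* in both groups, *TBKBP1* in NC and *IKBKE* in PON1-OE.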

Other observations

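The genes given here were chosen after their values were seen. Genes downstream of the TBK1 kinases were partly without counts in HCCLM3. *IFNB1*, *IFNL1*, *IFNL2*, *IFNL3* and *CXCL10* had 0 counts in every library, which at a floor of 3 counts allows up to 0.166 to 0.192 CPM per library. *IRF1*, which interferon signaling induces, had 2080 to 2330 counts. The sensor *CGAS* had 1 to 6 counts per library, while *STING1*, the adaptor behind it, had 712 to 839.

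*IFIT1*, an interferon-induced protein that binds viral RNA, was removed by the filter. It had 6, 7 and 7 counts in NC against 2, 3 and 2 with PON1-OE, and the groups did not overlap. All PON1-OE libraries were at or under the floor of 3 counts per library. The mean CPM of *IFIT1* in NC was 2.07 times the mean floor of the PON1-OE libraries. At 6 to 7 counts the NC mean carries counting error too, so this ratio is not a lower limit of the fold. Without the filter the adjusted p of *IFIT1* was 0.613 in edgeR's quasi-likelihood test, with an unadjusted p of 0.0908. In DESeq2 the unadjusted p was 0.151.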
